A study of Mus musculus with 18 samples.

Results

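The genes described here are the nuclear genes of the mitochondrial respiratory chain and its ATP synthase. They were picked by symbol from the deposited counts: symbols that begin with Ndufa, Ndufb, Ndufc, Ndufs or Ndufv and a digit, Sdha to Sdhd, and symbols that begin with Uqcr, with Cox4 to Cox8 or with Atp5. A total of at least 100 counts was also required over the 14 libraries of differentiation days 6, 8 and 12 (D6, D8 and D12). Of the 23337 genes in the table, 85 symbols matched and 82 met this threshold. Among the 82 were 34 genes of complex I, 4 of complex II, 8 of complex III, 18 of complex IV and 15 of complex V. Ndufa4, Ndufa4l2 and Cox7a2l were placed with complex IV. The remaining 3, Cox4nb, Atp5s and Atp5sl, match by symbol only and encode no subunit of a complex. Just inside the threshold lay Atp5l with 100 counts and Atp5g2 with 122 counts over the 14 libraries, and just outside it lay Cox7b2 with 13 and Ndufs5 with 0.

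The RNA came from GLI1-FTA, a mouse embryonic stem cell line of the A2Lox.cre strain that was differentiated towards heart muscle. GLI1 OE cells were exposed at D5 to doxycycline at 500 ng/ml, which induces GLI1, a Hedgehog-responsive transcription factor. After 24 hours, at D6, they were washed and cultured until harvest. Controls were untreated cells of the same line, so an effect of doxycycline and an effect of GLI1 cannot be told apart. Polyadenylated RNA was sequenced from 3 GLI1 OE and 3 control libraries at D6, 2 and 2 at D8, and 2 and 2 at D12. The labels call the D6 cells cardiac progenitors and the D8 and D12 cells immature cardiomyocytes, and they do not say whether replicates were separate cultures. The p-values therefore measure the spread between these libraries, which may be technical. Another 4 untreated D5 libraries belong to the series, but their counts treat reads that map to several places in another way, and they enter no comparison here.

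In the respiratory chain, complex I (NADH dehydrogenase) and complex II (succinate dehydrogenase) feed electrons to complex III (cytochrome bc1), and cytochrome c carries them to complex IV (cytochrome c oxidase), which reduces oxygen. The proton gradient they build drives complex V, the ATP synthase. Several subunits, mainly of complex IV, come as a widely expressed form and a form of heart and skeletal muscle or of low oxygen, and the developing heart shifts from glycolysis towards oxidative metabolism as it matures.

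The 14 libraries held between 18470785 and 22608134 counts each. Gli1 averaged 916 ± 136 CPM (counts scaled to a common library total, with library sizes adjusted by the trimmed mean of M-values, TMM) in D6 GLI1 OE and 14.2 ± 7.44 CPM in D6 controls (SD, n = 3 each), a log2 fold change of 6.01 (edgeR, adjusted p = 2.5e-05). At D8 and D12, Gli1 did not differ between GLI1 OE and controls (log2 fold changes 0.29 and 0.18, edgeR adjusted p = 0.94 and 0.97). The summed level of 16 cardiomyocyte markers (myosins, troponins, actins and calcium-handling genes) lay between 1672 and 20200 CPM, so RNA of these markers was present in every library, at levels that differed between libraries of 1 group. Markers of cardiac progenitors, the label of the D6 cells, were not checked. Summed blood markers lay between 1.14 and 1.85 CPM in the D12 libraries and between 110 and 725 CPM at D6, while summed smooth muscle and fibroblast markers lay between 13680 and 17490 CPM at D12 and between 3135 and 6808 CPM at D6. In bulk RNA, fewer cells of a type and less RNA of a gene per cell cannot be told apart.

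Between D6 and D12 the respiratory genes as a class moved modestly. In controls, 34 of the 82 genes were higher at D12 than at D6 and 4 were lower (edgeR quasi-likelihood test, adjusted p under 0.05). Over all 14723 genes tested, 62.1% were called in this comparison, 31.1% higher and 31% lower, so the share of respiratory genes that rose, 41.5%, lay somewhat above the background, and the share that fell, 4.88%, lay well below it. The median log2 change was 0.31 for the 82 genes and -0.02 for all genes tested. Rises were found in 14 of 34 genes of complex I, 2 of 4 of complex II, 4 of 8 of complex III, 9 of 18 of complex IV and 4 of 15 of complex V. The share in complex V, 26.7%, lay close to the 31.1% of all genes. Without TMM scaling, the median of the 82 genes was 0.13 and that of all genes -0.20, and the split became 26 higher and 8 lower. Without D12 control library 19, the median of the 82 genes was 0.15, and 17 were higher and 8 lower.

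**Figure D1:**
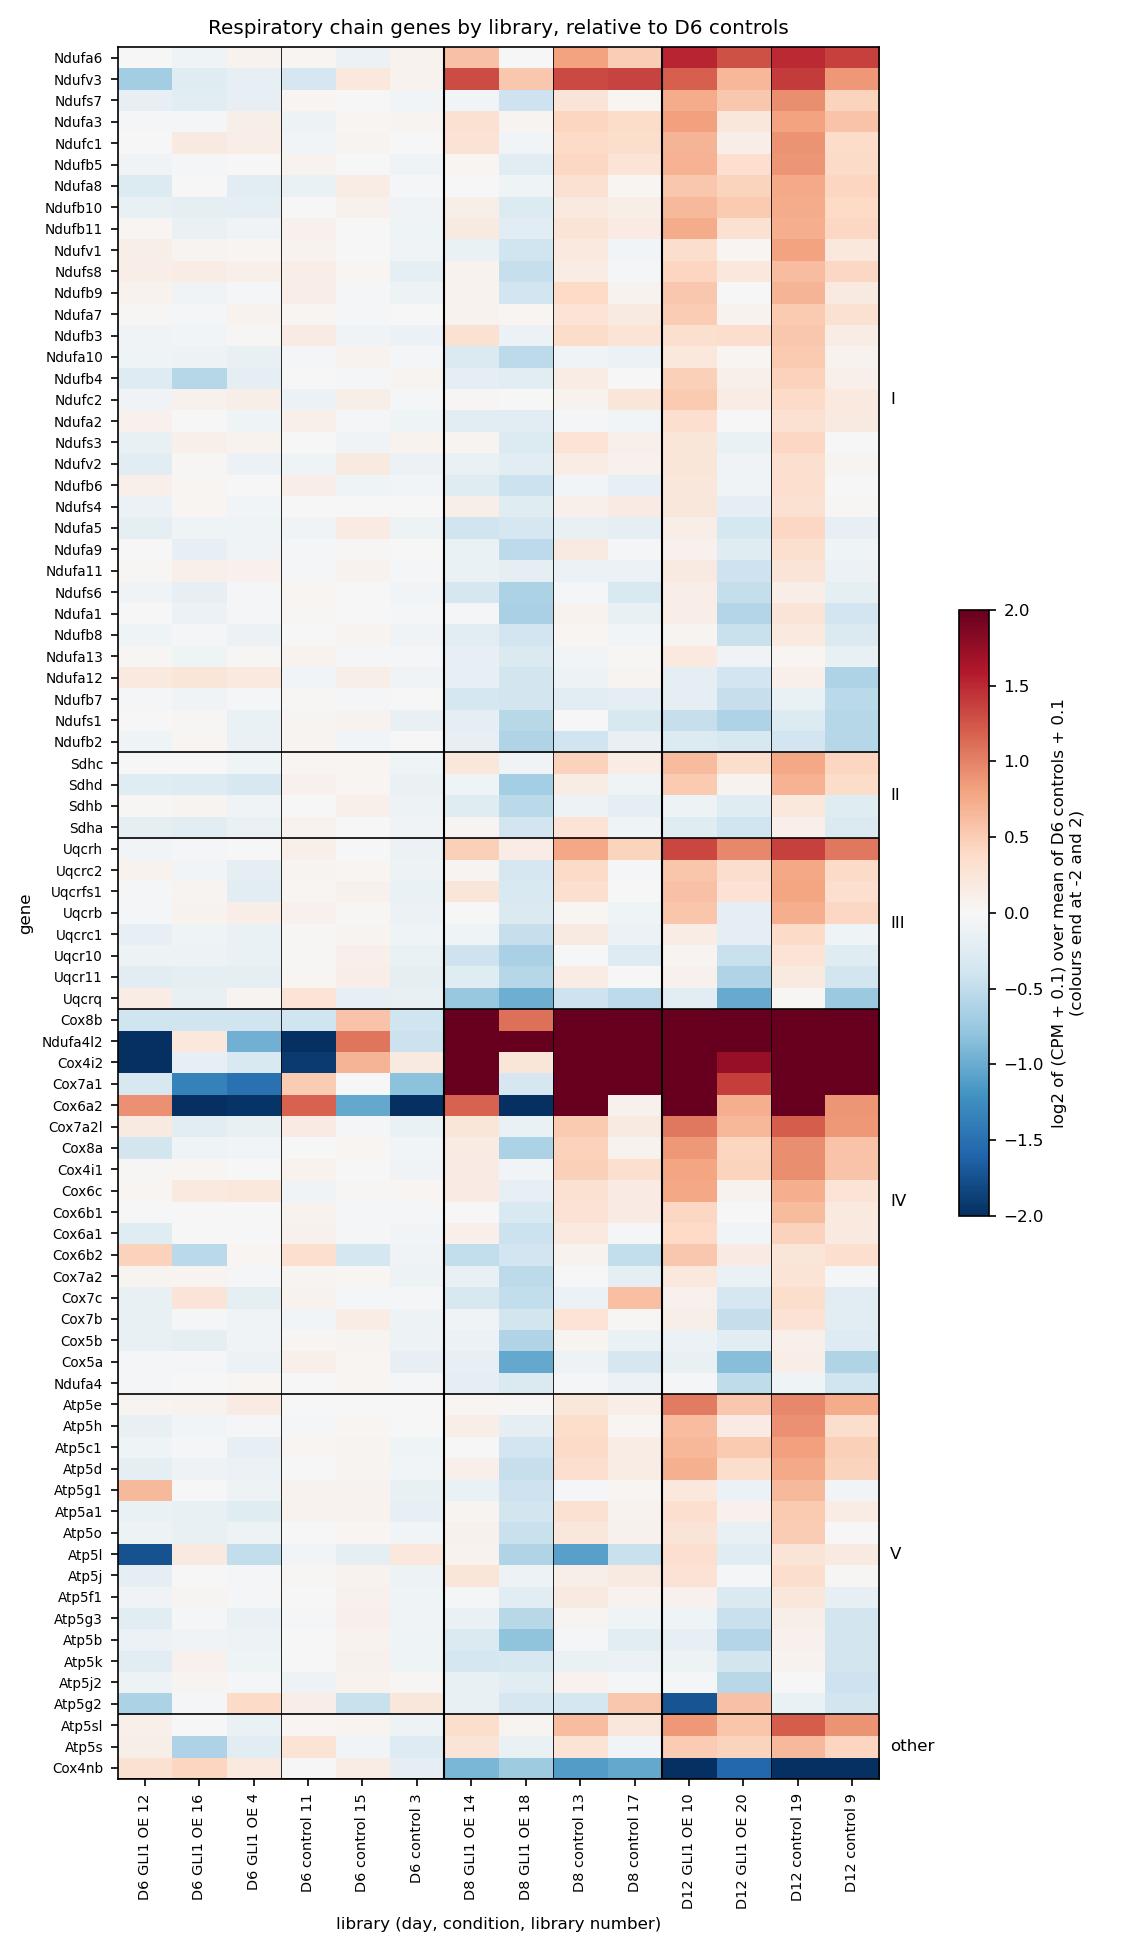
Level of 81 of the 82 genes in each of the 14 libraries, as log2 of CPM plus 0.1 over the mean of the D6 controls plus 0.1, with genes grouped by complex and ordered by their change from D6 to D12 in controls; colours end at -2 and 2. The muscle and low-oxygen forms of complex IV (Cox8b, Ndufa4l2, Cox4i2 and Cox7a1) go past the end of the scale in the D8 and D12 controls, Cox4nb goes the other way, and most other genes change by less than 1 log2 unit.

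The changes that stood apart in size were in complex IV, among subunits that have a second form. Cox7a1 is the heart and skeletal muscle form of subunit VIIa. In GLI1 OE it had 0.96, 1.07 and 2.30 CPM at D6, 2.27 and 18.3 CPM at D8, and 7.67 and 23.1 CPM at D12. In controls Cox7a1 had 1.59, 2.90 and 4.17 CPM at D6, 12.7 and 28.6 CPM at D8, and 12.9 and 28.8 CPM at D12. All later control libraries lay above all D6 control libraries, whereas the D8 GLI1 OE libraries were far from each other and the lower of them lay within the D6 GLI1 OE range. The log2 change from D6 to D12 was 3.42 ± 0.84 in GLI1 OE and 2.85 ± 0.81 in controls (± SE; edgeR adjusted p = 0.0046 and 0.0099). Its widely expressed counterpart Cox7a2 averaged 112 ± 15.7 CPM in D12 controls (n = 2) and 102 ± 6.28 CPM in D6 controls (n = 3), a log2 change of 0.13 ± 0.14 that did not pass (edgeR adjusted p = 0.44). Of the reads assigned to the 2 forms, which were not corrected for length, Cox7a1 took 1.66% to 3.79% in D6 controls, 12.5% to 21.8% in D8 controls and 11.4% to 19.0% in D12 controls.

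Cox8b, the heart and skeletal muscle form of subunit VIII, was close to absent at D6. Over the 3 D6 GLI1 OE libraries it had 0 counts and over the 3 D6 control libraries it had 2 counts, both in D6 control library 15. It reached 0.18 and 4.02 CPM in D8 GLI1 OE, against 2.16 and 5.71 CPM in D8 controls, and 3.70 and 10.02 CPM in D12 GLI1 OE, against 6.01 and 13.6 CPM in D12 controls. With 253 counts at D12 and 0 at D6, Cox8b was at least 143-fold higher at D12 in GLI1 OE, taking 3 counts over the D6 group as the limit that a count of 0 allows. In controls the 367 counts at D12 and 2 at D6 gave a ratio of 317 with a 95% interval of 87.1 to 2627, which covers counting error only. Cox8b met the threshold of 100 counts and the filter on low counts through its D8 and D12 libraries alone, so its rise is given as a description, although it is counted among the genes that rose. Cox8a, the widely expressed form, averaged 175 ± 29.6 CPM in D12 controls (n = 2) and 104 ± 3.21 CPM in D6 controls (n = 3), a log2 change of 0.76 ± 0.22 (edgeR adjusted p = 0.011). Without D12 control library 19 this change of Cox8a did not pass (edgeR adjusted p = 0.097).

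Promoter sequences were available for 67 of the genes, from RefSeq on build GRCm38.p6, as the 250 bases before the annotated start. The Cox7a2 window precedes a start inside the annotated span of the gene, and the other windows shown adjoin the outer end of theirs. They are shown for Cox7a1 and Cox8b with their widely expressed counterparts Cox7a2 and Cox8a, because the forms of each pair took different courses, and for Ndufa6, which had the largest rise in complex I. Capitals mark exact matches, on either strand, to 6 motifs searched. CCGGAAG is a core that ETS factors bind, GCATGCGC is the core of the nuclear respiratory factor NRF1, and AAGGTCA is that of the estrogen-related receptors. CAGCTG is an E-box of muscle regulators, AGATAA is bound by the zinc-finger factors of early heart and blood, and TATAAA is the core promoter box. The marked matches do not overlap one another.
Cox7a1, chr7:30183921-30184170, plus strand: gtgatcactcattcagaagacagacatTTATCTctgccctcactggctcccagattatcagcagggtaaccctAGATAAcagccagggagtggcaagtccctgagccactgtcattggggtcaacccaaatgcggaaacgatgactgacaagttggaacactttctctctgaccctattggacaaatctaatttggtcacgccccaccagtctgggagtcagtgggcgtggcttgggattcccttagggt
Cox7a2, chr9:79759854-79760103, minus strand: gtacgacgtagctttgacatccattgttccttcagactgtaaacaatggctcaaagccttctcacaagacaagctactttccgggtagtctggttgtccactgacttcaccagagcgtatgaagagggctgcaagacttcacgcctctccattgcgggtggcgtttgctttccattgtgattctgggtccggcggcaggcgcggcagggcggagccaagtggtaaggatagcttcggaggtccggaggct
Cox8b, chr7:140900447-140900696, minus strand: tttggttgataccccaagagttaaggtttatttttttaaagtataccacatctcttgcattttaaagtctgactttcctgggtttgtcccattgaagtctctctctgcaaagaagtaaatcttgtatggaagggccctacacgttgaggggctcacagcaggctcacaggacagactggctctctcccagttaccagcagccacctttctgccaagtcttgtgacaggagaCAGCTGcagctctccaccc
Cox8a, chr19:7217617-7217866, minus strand: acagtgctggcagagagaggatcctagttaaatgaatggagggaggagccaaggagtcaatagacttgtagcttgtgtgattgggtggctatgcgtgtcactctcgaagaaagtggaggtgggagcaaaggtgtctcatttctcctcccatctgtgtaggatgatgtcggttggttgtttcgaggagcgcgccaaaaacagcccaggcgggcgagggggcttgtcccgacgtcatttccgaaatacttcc
Ndufa6, chr15:82354292-82354541, minus strand: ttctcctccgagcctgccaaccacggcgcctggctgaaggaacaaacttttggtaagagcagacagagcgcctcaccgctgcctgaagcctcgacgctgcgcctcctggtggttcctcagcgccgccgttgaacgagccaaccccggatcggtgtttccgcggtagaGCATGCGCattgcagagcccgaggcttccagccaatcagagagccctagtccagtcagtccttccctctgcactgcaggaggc
The Cox7a1 window holds 2 matches to AGATAA, the Cox8b window holds 1 E-box match 19 bases before the start, the Ndufa6 window holds 1 NRF1 match, and the Cox7a2 and Cox8a windows hold none of the 6 motifs. The share of G and C bases was 51.2% in Cox7a1, 54.8% in Cox7a2, 47.2% in Cox8b, 52.8% in Cox8a and 62.4% in Ndufa6.

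Across the 67 genes with promoter sequence, CCGGAAG occurred in 17.9%, against 7.83% of the 27025 genes with a promoter in the table, and GCATGCGC occurred in 11.9%, against 2.56%. The muscle-type and core motifs were not more frequent than in all genes, with 7.46% against 14.7% for CAGCTG, 8.96% against 11.4% for AGATAA and 7.46% against 14.3% for TATAAA, and AAGGTCA occurred in 5.97% against 4.70%. The median share of G and C bases was 56.0% over the 73 promoters of these genes, against 52.4% over all 32851 promoters. The part of base composition in the motif shares was not tested, and the background takes in genes whether or not they were expressed. The motif shares are counts of letters in a fixed window and carry no measure of binding.

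The third muscle form, Cox6a2, did not pass in any comparison with all libraries. Its D12 control libraries held 16.9 and 46.9 CPM and its D6 control libraries 2.07, 4.43 and 20.7 CPM, so the days overlapped. Its log2 change from D6 to D12 was 1.92 ± 1.27 in GLI1 OE and 1.82 ± 1.26 in controls (edgeR adjusted p = 0.21 and 0.23). Without D6 GLI1 OE library 12 the change in GLI1 OE was 3.70 and passed (edgeR adjusted p = 0.043). The highest D6 libraries for Cox6a2 were GLI1 OE library 12 with 17.1 CPM and control library 11 with 20.7 CPM, which were also the libraries with the highest cardiomyocyte marker sum of their group, 6368 and 13960 CPM. The part of cell composition in these values was not tested. Cox6a1, the widely expressed form, had a log2 change of 0.33 ± 0.18 from D6 to D12 in controls and did not pass (edgeR adjusted p = 0.13). Cox6b2, known as the testis form of subunit VIb, averaged 25.1 ± 1.24 CPM in D12 controls (n = 2) and 20.5 ± 5.06 CPM in D6 controls (n = 3) and did not pass either (edgeR adjusted p = 0.39). Its widely expressed counterpart Cox6b1 rose in controls by a log2 change of 0.43 ± 0.14 (edgeR adjusted p = 0.023), a call that was lost without D12 control library 19, D6 control library 3 or D6 control library 15 (edgeR adjusted p = 0.32, 0.057 and 0.065) and without TMM scaling (edgeR adjusted p = 0.11).

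**Figure D2:**
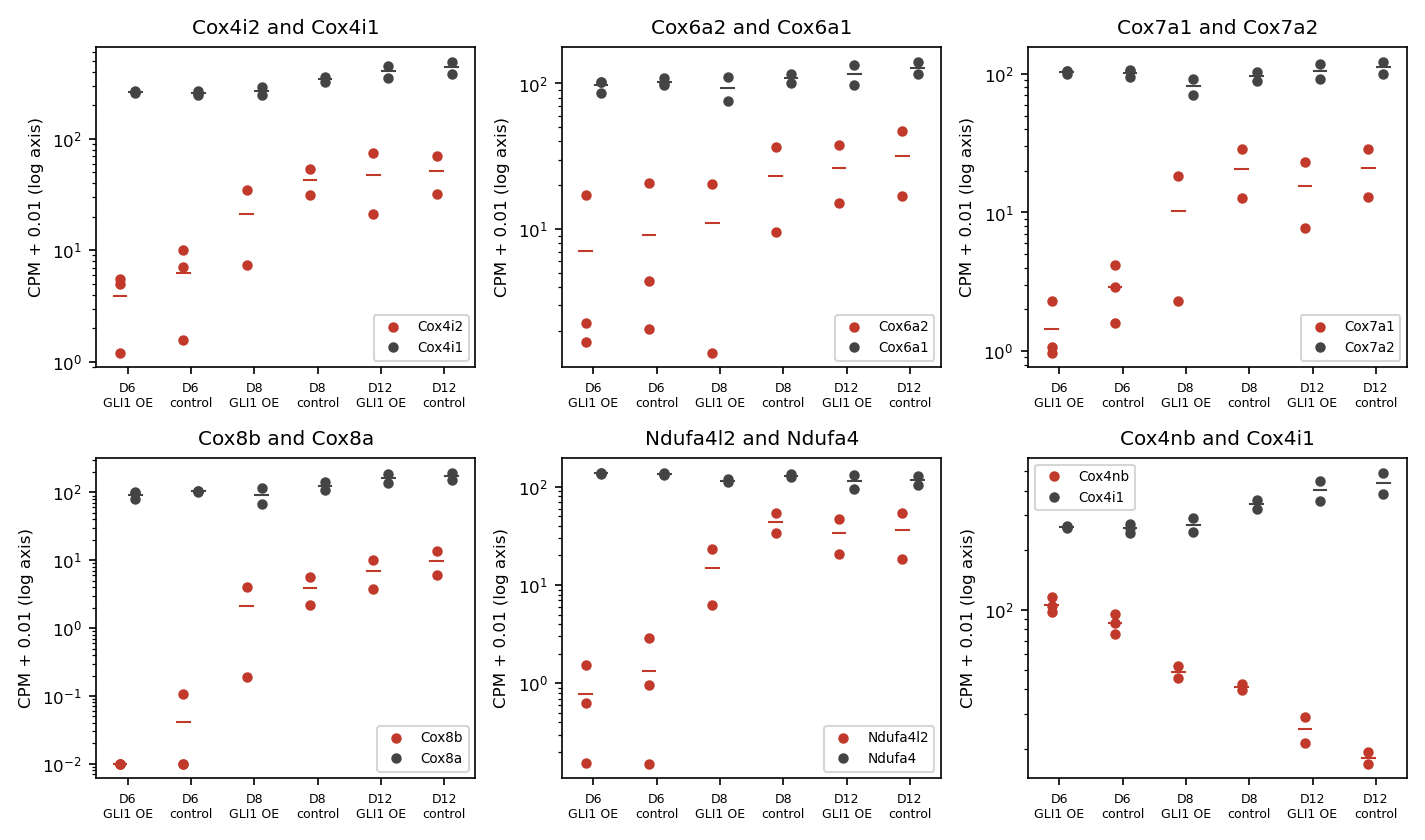
Level of each alternative subunit form (red) and of its widely expressed counterpart (black) in each library, as CPM plus 0.01 on a log axis, by day with GLI1 OE left of control; short lines are group means, and the last panel sets Cox4nb beside its genomic neighbour Cox4i1. Cox4i2, Cox7a1, Cox8b and Ndufa4l2 are low at D6 and higher at D8 and D12 in controls, while the lower D8 GLI1 OE library lies close to the D6 values for Cox4i2, Cox6a2 and Cox7a1.

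The forms linked to low oxygen rose between D6 and D8 in controls. Cox7a1 and Cox8b, the muscle forms described above, also had some of the largest rises in that interval. The rise of Cox7a1 from D6 to D8 did not pass without D6 control library 3 or 15 (log2 changes 2.55 and 2.83, edgeR adjusted p = 0.058 and 0.051). Without D8 control library 13, which leaves only D8 control library 17 in that group, the log2 change of Cox7a1 was 2.15. Cox4i2 is the form of subunit IV that is induced by low oxygen and abundant in lung. Its levels in GLI1 OE were 1.20, 4.98 and 5.52 CPM at D6, 7.31 and 35.1 CPM at D8, and 21.1 and 74.5 CPM at D12. Control libraries held 1.56, 7.02 and 9.99 CPM of Cox4i2 at D6, 31.2 and 54.0 CPM at D8, and 31.7 and 70.6 CPM at D12. Every D8 and D12 control library thus lay above every D6 control library, and D12 and D8 overlapped. The log2 change was 2.78 ± 0.87 from D6 to D8 and 0.26 ± 0.92 from D8 to D12 in controls (edgeR adjusted p = 0.027 and 0.84). The first step did not pass without D6 control library 3 or 11 or D8 control library 13 (edgeR adjusted p = 0.060, 0.070 and 0.13). From D6 to D12 it was 3.60 ± 0.90 in GLI1 OE and 3.04 ± 0.87 in controls (edgeR adjusted p = 0.0048 and 0.010). Without D12 control library 19 the change of Cox4i2 from D6 to D12 in controls was 2.34 and did not pass (edgeR adjusted p = 0.079), and without D12 GLI1 OE library 10 the change in GLI1 OE was 2.38 and did not pass (edgeR adjusted p = 0.065). The same libraries decided Cox7a1, with 2.15 in controls (edgeR adjusted p = 0.083) and 2.37 in GLI1 OE (edgeR adjusted p = 0.056) when they were left out.

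Ndufa4l2 is a target of hypoxia-inducible factor 1 and a relative of Ndufa4, a subunit of complex IV. It had 0.14, 0.63 and 1.53 CPM in D6 GLI1 OE, 6.31 and 23.3 CPM in D8 GLI1 OE, and 20.8 and 46.7 CPM in D12 GLI1 OE. Ndufa4l2 had 0.14, 0.95 and 2.86 CPM in D6 controls, 33.6 and 54.0 CPM in D8 controls, and 18.4 and 54.1 CPM in D12 controls. No D8 or D12 library overlapped with a D6 library of its condition. Its log2 change from D6 to D8 in controls was 5.06 ± 0.95, and from D8 to D12 it was -0.27 ± 0.90 (edgeR adjusted p = 0.0023 and 0.83). From D6 to D12 the change was 5.45 ± 1.00 in GLI1 OE and 4.78 ± 0.95 in controls (edgeR adjusted p = 0.00071 and 0.0012). Ndufa4 averaged 116 ± 17.6 CPM in D12 controls (n = 2) and 136 ± 3.73 CPM in D6 controls (n = 3), a log2 change of -0.23 ± 0.13 that did not pass (edgeR adjusted p = 0.15), and it passed as a fall without TMM scaling (log2 change -0.41, edgeR adjusted p = 0.0096) and without D12 control library 19 (-0.41, edgeR adjusted p = 0.044). In GLI1 OE it passed as a fall without TMM scaling and without D12 GLI1 OE library 10 (edgeR adjusted p = 0.013 and 0.0040).

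Other genes of glycolysis and of the response to low oxygen also rose between D6 and D8. Of 19 tested, 14 rose and 0 fell from D6 to D8 in controls, against a background over all genes of 18.7% higher and 19.6% lower, 38.3% in all. From D8 to D12, 0 rose and 5 fell, against a background of 19.4% higher and 19.8% lower, 39.2% in all. Between D6 and D12, 6 were higher (31.6%, about the background of 31.1%) and 2 were lower (10.5%, against 31%), among them Adm, the vasodilator adrenomedullin, with a log2 change of 2.96 ± 0.40 and Ndrg1 with 3.55 ± 0.54 (edgeR adjusted p = 9.2e-05 and 0.00020).

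The remaining genes of complex IV changed less. Cox4i1, the widely expressed subunit IV, averaged 401 ± 67.4 CPM in D12 GLI1 OE (n = 2) and 263 ± 3.40 CPM in D6 GLI1 OE (n = 3), a log2 change of 0.61 ± 0.13. It averaged 438 ± 78.0 CPM in D12 controls (n = 2) and 258 ± 12.3 CPM in D6 controls (n = 3), a change of 0.76 ± 0.13 (edgeR adjusted p = 0.0018 in GLI1 OE and 0.00041 in controls). Cox7a2l, which helps complex III and complex IV assemble into supercomplexes, did not pass between D6 and D8 and rose by D12. Cox7a2l had 103 and 136 CPM in D12 GLI1 OE, above the 56.1 to 73.5 CPM in D6 GLI1 OE. It had 59.4, 63.3 and 72.9 CPM in D6 controls, 73.5 and 93.6 CPM in D8 controls, and 119 and 152 CPM in D12 controls, with no overlap between days. Its log2 change was 0.70 ± 0.21 from D8 to D12 and 1.06 ± 0.18 from D6 to D12 in controls (edgeR adjusted p = 0.020 and 0.00048), and the first did not pass without D8 control library 17 or D12 control library 19 (edgeR adjusted p = 0.15 in each).

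In complex I, 14 of 34 genes rose from D6 to D12 in controls and 3 fell. Ndufa6, an accessory subunit of the matrix arm, had the largest rise. Its levels in GLI1 OE were 52.6, 55.7 and 58.4 CPM at D6, 56.1 and 83.2 CPM at D8, and 135 and 160 CPM at D12. In controls Ndufa6 held 51.4, 57.3 and 58.1 CPM at D6, 78.6 and 96.7 CPM at D8, and 143 and 157 CPM at D12. The 3 days did not overlap in controls, and the gene rose at each step, by 0.66 ± 0.16 from D6 to D8 and 0.77 ± 0.17 from D8 to D12 on the log2 scale (edgeR adjusted p = 0.0076 and 0.0052). The first step did not pass without D8 control library 13 (edgeR adjusted p = 0.073) and the second did not pass without D8 control library 17 (edgeR adjusted p = 0.051). From D6 to D12 the change was 1.41 ± 0.16 in GLI1 OE and 1.43 ± 0.16 in controls (edgeR adjusted p = 1.9e-05 and 1.7e-05).

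Ndufv3, a small subunit of the NADH-binding module of complex I, followed another course. It had 36.7, 50.4 and 52.9 CPM in D6 GLI1 OE, 86.7 and 147 CPM in D8 GLI1 OE, and 94.4 and 137 CPM in D12 GLI1 OE. Control libraries held 47.3, 62.5 and 68.7 CPM of Ndufv3 at D6, 149 and 152 CPM at D8, and 109 and 157 CPM at D12. Its log2 change was 1.34 ± 0.26 from D6 to D8 and -0.18 ± 0.29 from D8 to D12 in controls (edgeR adjusted p = 0.0030 and 0.66), so the rise that passed lay between D6 and D8. The other complex I genes that rose from D6 to D12 in controls had log2 changes between 0.32 (Ndufa10) and 0.71 (Ndufs7). The call of Ndufa10 was lost without any one of D6 control libraries 3, 11 and 15 (edgeR adjusted p between 0.071 and 0.11). It was also lost without TMM scaling and without the filter on low counts (edgeR adjusted p = 0.31 and 0.059), and without D12 control library 19 (log2 change 0.06).

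The 3 complex I genes that fell did so by little. Ndufb2, an accessory subunit of the membrane arm, averaged 19.9 ± 1.80 CPM in D12 controls (n = 2) and 27.6 ± 0.97 CPM in D6 controls (n = 3), a log2 change of -0.47 ± 0.14 (edgeR adjusted p = 0.013). Ndufs1, the largest core subunit of the matrix arm, averaged 128 ± 18.4 CPM in D12 controls and 171 ± 13.8 CPM in D6 controls, a change of -0.42 ± 0.15 (edgeR adjusted p = 0.027). Ndufb7 changed by -0.32 ± 0.12 (edgeR adjusted p = 0.034). Without D12 control library 9, Ndufb2, Ndufs1 and Ndufb7 did not pass (edgeR adjusted p = 0.077, 0.15 and 0.26), and without D6 control library 11 Ndufs1 and Ndufb7 did not (edgeR adjusted p = 0.064 and 0.073). In GLI1 OE, Ndufs1 fell with a log2 change of -0.50 ± 0.15, and Ndufa12, an accessory subunit, with -0.51 ± 0.20 (edgeR adjusted p = 0.011 and 0.043). The call of Ndufa12 was lost, with edgeR adjusted p between 0.051 and 0.14, without D6 GLI1 OE library 12 or 16 or D12 GLI1 OE library 10 or 20.

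Complex II and complex III showed the same range of small changes with 1 exception. Sdha, the flavoprotein of succinate dehydrogenase, averaged 279 ± 54.2 CPM in D12 controls and 295 ± 15.0 CPM in D6 controls and did not pass (log2 change -0.08 ± 0.16, edgeR adjusted p = 0.68). Its membrane anchors Sdhc and Sdhd rose in controls, with log2 changes of 0.61 ± 0.14 and 0.54 ± 0.18 (edgeR adjusted p = 0.0026 and 0.023). Sdhd did not pass without D6 control library 3 or without TMM scaling (edgeR adjusted p = 0.068 and 0.074), nor without D12 control library 19 (log2 change 0.35). In complex III, the exception was Uqcrh, the hinge protein near cytochrome c1. It had 112, 113 and 116 CPM in D6 GLI1 OE, 129 and 161 CPM in D8 GLI1 OE, and 226 and 292 CPM in D12 GLI1 OE. In controls Uqcrh had 108, 116 and 125 CPM at D6, 158 and 198 CPM at D8, and 242 and 300.1 CPM at D12. Neither condition had overlap between D6, D8 and D12, and the log2 change from D6 to D12 was 1.19 ± 0.15 in GLI1 OE and 1.22 ± 0.15 in controls (edgeR adjusted p = 4.4e-05 and 3.7e-05). Uqcrc2, a core protein of complex III, rose by 0.58 ± 0.16 in controls (edgeR adjusted p = 0.0086), which did not pass without D12 control library 19 (edgeR adjusted p = 0.12).

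In complex V, 4 of 15 genes rose from D6 to D12 in controls and 0 fell. Atp5b, the catalytic beta subunit, averaged 1502 ± 335 CPM in D12 controls and 1637 ± 89.5 CPM in D6 controls, a log2 change of -0.12 ± 0.18 (edgeR adjusted p = 0.57). Atp5e, the small epsilon subunit of the central stalk, rose late. It held 76.4, 77.4 and 82.1 CPM in D6 GLI1 OE, 74.9 and 75.4 CPM in D8 GLI1 OE, and 107 and 150 CPM in D12 GLI1 OE. In controls Atp5e had 72.8, 73.1 and 74.0 CPM at D6, 80.0 and 86.1 CPM at D8, and 123 and 143 CPM at D12. Its log2 change in controls was 0.18 ± 0.13 from D6 to D8 and 0.68 ± 0.14 from D8 to D12 (edgeR adjusted p = 0.28 and 0.0033). The other stalk genes that rose from D6 to D12 were Atp5c1 (gamma subunit), Atp5d (delta subunit) and Atp5h (peripheral stalk), with log2 changes of 0.66 ± 0.14, 0.61 ± 0.16 and 0.66 ± 0.18 in controls (edgeR adjusted p = 0.0015, 0.0068 and 0.0080). Without D12 control library 19, Atp5d and Atp5h did not pass (edgeR adjusted p = 0.077 and 0.14).

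Atp5g1, Atp5g2 and Atp5g3 encode the same mature subunit c of the proton-driven ring, and reads can be split between them and related sequences. Atp5g3 averaged 302 ± 72.0 CPM in D12 controls and 324 ± 19.6 CPM in D6 controls, a log2 change of -0.10 ± 0.17 (edgeR adjusted p = 0.62). Atp5g1 held 1.33 to 1.57 CPM in the D6 controls and Atp5g2 held 0.29 to 0.52 CPM, and neither passed in any comparison with all libraries, while Atp5g2 passed as lower from D6 to D12 in GLI1 OE without D12 GLI1 OE library 20 (edgeR adjusted p = 0.039). In the D5 counts, Atp5g1 and Atp5g2 were 38.6 and 145 times as high, per library total, as in the D6 controls. Day and counting method cannot be told apart there, so the D6 to D12 levels of Atp5g1 and Atp5g2 are uncertain. The same holds for Atp5l, Cox7c, Uqcrb and Atp5h, whose D5 counts were more than 3 times those of the D6 controls. Leaving out these 6 genes, 32 of 76 were higher and 4 lower at D12 than at D6 in controls.

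Among the 3 symbols that encode no subunit, Cox4nb had the largest fall of all 82. It is an older name of Emc8, a member of the endoplasmic reticulum membrane complex that inserts proteins into membranes, and its gene neighbours Cox4i1 in the RefSeq annotation. Cox4nb levels in GLI1 OE were 98.0, 105 and 116 CPM at D6, 45.2 and 52.4 CPM at D8, and 21.4 and 28.9 CPM at D12. Control libraries held 76.0, 85.8 and 94.99 CPM of Cox4nb at D6, 39.4 and 42.1 CPM at D8, and 16.8 and 19.2 CPM at D12. The days did not overlap in either condition, while its neighbour Cox4i1 rose. The log2 change of Cox4nb from D6 to D12 was -2.08 ± 0.16 in GLI1 OE and -2.25 ± 0.16 in controls (edgeR adjusted p = 1.6e-06 and 1.1e-06). Atp5sl, now named Dmac2 and known as an assembly factor of the complex I membrane arm, rose by 0.73 ± 0.16 in GLI1 OE and 1.06 ± 0.15 in controls (edgeR adjusted p = 0.0018 and 0.00013). Atp5s rose in GLI1 OE with a log2 change of 0.69 ± 0.25 and did not pass in controls, with 0.55 ± 0.25 (edgeR adjusted p = 0.031 and 0.072). The call of Atp5s in GLI1 OE was lost without D6 GLI1 OE library 4 or 16 (edgeR adjusted p = 0.084 and 0.13). It was also lost without TMM scaling and without the filter on low counts (edgeR adjusted p = 0.060 and 0.052), and without D12 GLI1 OE library 10 or 20 (log2 changes 0.61 and 0.67). In controls Atp5s passed without D6 control library 11 and with all 18 libraries in the fit (edgeR adjusted p = 0.042 and 0.049).

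**Figure D3:**
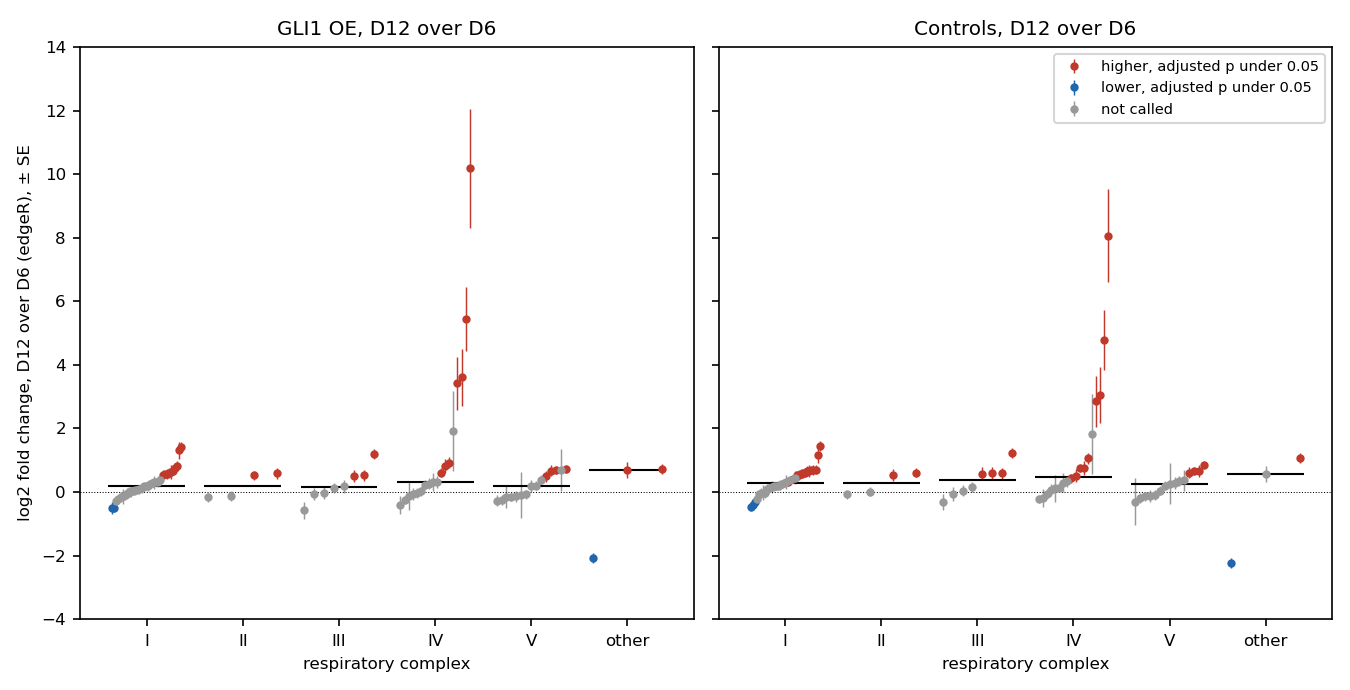
Log2 fold change of each gene from D6 to D12 in GLI1 OE (left) and in controls (right) by complex, with its standard error; black lines are medians, red is higher and blue lower at an edgeR adjusted p under 0.05, grey is not called. Complex IV holds the 4 genes above 2 log2 units in both conditions, and the estimate of Cox8b, the highest point, depends on the few or no counts it had at D6. The blue point below -2 is Cox4nb.

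The change over time was also tested within GLI1 OE cells, where 28 of 82 genes were higher at D12 than at D6 and 3 were lower (background 62.9%, of which 32.5% higher and 30.3% lower). Of the genes that rose, 26 rose in both conditions, which is 92.9% of the GLI1 OE list and 76.5% of the control list. The same overlap was not counted over all genes, so these shares cannot be read as particular to the respiratory genes. No gene was called in opposite directions. The median log2 change was 0.22 in GLI1 OE, against 0.05 for all genes tested. Without D12 GLI1 OE library 10 this median was -0.02. In the shorter intervals of the controls, 10 of 82 genes were higher and 1, Cox4nb, was lower from D6 to D8 (background 18.7% higher and 19.6% lower). From D8 to D12, 10 of 82 were higher and 1, again Cox4nb, was lower (background 19.4% higher and 19.8% lower). Rises and falls were thus less frequent than over all genes in both intervals. Ndufa6, Uqcrh and Atp5sl rose in both. The rise of Uqcrh from D6 to D8 did not pass without D8 control library 13 (edgeR adjusted p = 0.079), and that from D8 to D12 did not pass without D8 control library 17 or D12 control library 19 (edgeR adjusted p = 0.12 and 0.11). The rise of Atp5sl from D6 to D8 did not pass without any one of D6 control libraries 3, 11 and 15 or D8 control library 13 (edgeR adjusted p between 0.074 and 0.34), and that from D8 to D12 did not pass without D8 control library 17 or D12 control library 19 (edgeR adjusted p = 0.13 and 0.12).

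No respiratory gene passed the test between GLI1 OE and controls. At D6, at the end of the doxycycline exposure, 0 of 82 were called (background 5.51%, of which 3.66% higher and 1.85% lower). The median log2 fold change was -0.05, against -0.03 for all genes, and 1 gene had an unadjusted p under 0.05. That gene was Cox4nb, with 98.0, 105 and 116 CPM in GLI1 OE, against 76.0, 85.8 and 94.99 CPM in controls and a log2 fold change of 0.31 ± 0.13 (edgeR adjusted p = 0.22). The next was Ndufb4, a complex I subunit, with 2.87, 3.59 and 3.81 CPM in GLI1 OE, all below the 4.19, 4.27 and 4.48 CPM in controls (difference of -0.33 ± 0.20 on the log2 scale, edgeR adjusted p = 0.45). The level of Ndufb4 in the counts is uncertain, as given with the D5 libraries below. Every GLI1 OE library lay above every control library for 3 of the 82 genes and below for 11, where 12.5% and 14.7% of all genes did so. DESeq2 called 0 respiratory genes, against 9.19% of all genes, and the authors' deposited table, which holds 81 of the 82, called 0 as well, against 12.6% of its genes.

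At D8, after washout, 0 of 82 were called and 0 of all 14723 genes were (background 0%), but the estimates leaned to 1 side. For 80 of 82 genes the GLI1 OE estimate was below control, with a median log2 fold change of -0.28 against 0.00 for all genes, and 8 genes had an unadjusted p under 0.05. Both GLI1 OE libraries lay below both control libraries for 47 of 82 genes and above them for 1, against 15.7% and 16.6% of all genes. By complex the count of genes with both libraries below was 26 of 34 in complex I, 1 of 4 in complex II, 3 of 8 in complex III, 6 of 18 in complex IV and 11 of 15 in complex V. The smallest p belonged to Atp5c1, with 200 and 262 CPM in GLI1 OE, against 289 and 340 CPM in controls (difference of -0.45 ± 0.15 on the log2 scale, edgeR adjusted p = 0.58). Ndufb5, a complex I subunit, had 67.9 and 81.4 CPM in GLI1 OE, against 95.8 and 105 CPM in controls (difference of -0.43 ± 0.16 on the log2 scale, edgeR adjusted p = 0.61). The median lay between -0.43 and -0.14 when each D8 library was left out in turn. DESeq2 called 0 respiratory genes, against 0.55% of all genes, and the authors' deposited table called 0 of 82 with 80 estimates below 0, against 0.0727% of its genes called.

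The D8 libraries also differed within their groups. D8 GLI1 OE library 18 had a summed level of 7090 CPM over the 82 genes, the lowest of the 14 libraries, and library 14 had 9261 CPM, against 9493 and 10920 CPM in the D8 controls. For 78 of 82 genes library 14 was above library 18, where 49.8% of all genes were. The summed cardiomyocyte markers, which are 16 of 16 lower by estimate in D8 GLI1 OE with 0 called, were 1672 CPM in library 18 and 17550 CPM in library 14, against 8835 and 20200 CPM in the controls. Smooth muscle and fibroblast markers summed to 8183 CPM in library 18 and 4344 CPM in library 14, against 7214 and 4085 CPM in the controls, and genes of glycolysis and the low-oxygen response to 4851 and 9854 CPM, against 9074 and 10070 CPM in the controls. At D6 the cardiomyocyte marker sum averaged 3541 ± 2449 CPM in GLI1 OE, against 9608 ± 4111 CPM in controls, while the respiratory sum averaged 8922 ± 125 CPM in GLI1 OE, against 9404 ± 483 CPM in controls (SD, n = 3 each). Between libraries with adjacent numbers, whose deviations were correlated at D6 and D8, the respiratory sum was lower in GLI1 OE than in the control in 5 of 5 pairs on those days. At D6 these sums were 8808, 8901 and 9056 CPM in GLI1 OE libraries 4, 12 and 16, against 8849, 9637 and 9726 CPM in control libraries 3, 11 and 15. Without TMM scaling, GLI1 OE library 4 lay above control library 3, at 9309 against 9225 CPM. With these pairs as a block, 0 respiratory genes were called at D6, where 1358 of all 14723 genes were. At D8 the block called 0 respiratory genes and 0 of all genes. The citric acid cycle genes also leaned down at D8, with 13 of 13 estimates below 0, a median log2 fold change of -0.31 and 0 called. The part of cell composition in the D8 difference was not tested.

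At D12, 0 of 82 were called and 0 of all genes were (background 0%). The estimate lay below control for 73 of 82, the median log2 fold change was -0.13 against 0.00 for all genes, and 1 gene, Cox4nb, had an unadjusted p under 0.05. Cox4nb had 21.4 and 28.9 CPM in GLI1 OE, against 16.8 and 19.2 CPM in controls (difference of 0.48 ± 0.16 on the log2 scale, edgeR adjusted p = 0.70). Atp5sl had 42.5 and 52.8 CPM in GLI1 OE, below the 54.0 and 67.1 CPM in controls (difference of -0.35 ± 0.17 on the log2 scale, edgeR adjusted p = 0.79). Only 2 of 82 genes had both GLI1 OE libraries above both controls and 1 had both below, where 18.3% and 16.1% of all genes did. When each D12 library was left out in turn, the median lay between -0.32 and 0.07, so its sign depended on the library. DESeq2 called 0, against 0.224% of all genes, and the authors' deposited table called 0 of 82 with 76 estimates below 0, against 0.523% of its genes called.

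The change of the GLI1 OE effect between days was tested directly. For the effect at D8 minus that at D6, 0 of 82 genes were called (background 0.149% higher and 0.768% lower), and Cox4i1 had the smallest p, with an edgeR adjusted p of 0.65. For the effect at D12 minus that at D6, 0 of 82 were called (background 0.17% higher and 0.666% lower), and Ndufv1, the NADH-binding core subunit, had the smallest p, with an edgeR adjusted p of 0.61.

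**Figure D4:**
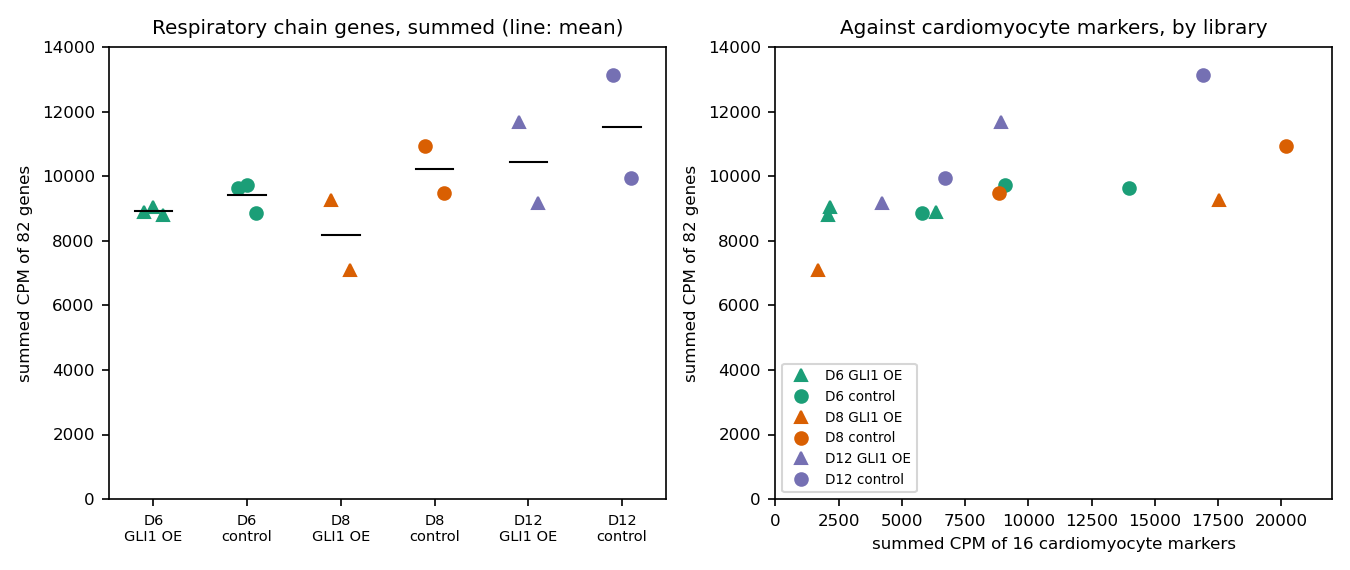
Summed CPM of the 82 genes in each library by group, with group means as lines (left), and the same sums against the summed CPM of 16 cardiomyocyte markers (right); triangles are GLI1 OE and circles are controls. Within each D8 and D12 group, the library with more cardiomyocyte marker RNA also has the higher respiratory sum, and D8 GLI1 OE library 18 is lowest on both axes. In both D6 groups the library with the least marker RNA has the lowest respiratory sum. The D6 library with the most marker RNA does not have the highest respiratory sum in either group.

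The spread between replicate libraries was a property shared by nearly all of the genes. At D12, GLI1 OE library 10 was above library 20 for 79 of 82 genes and control library 19 was above library 9 for 80 of 82, where 49.8% and 49.5% of all genes were. Their median log2 ratios were 0.37 and 0.38, against 0.00 for all genes. At D8, control library 13 was above library 17 for 67 of 82 genes, with a median ratio of 0.15. The summed level was 11690 and 9157 CPM in D12 GLI1 OE libraries 10 and 20, against 13130 and 9946 CPM in D12 control libraries 19 and 9. It lay between 8808 and 9056 CPM in D6 GLI1 OE and between 8849 and 9726 CPM in D6 controls. Cardiomyocyte markers summed to 8922 and 4215 CPM in D12 GLI1 OE libraries 10 and 20, against 16890 and 6719 CPM in D12 control libraries 19 and 9. At D12 the distance between libraries of a group was thus larger than the median change between D6 and D12.

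Genes that act beside the complexes both rose and fell between D6 and D12 in controls, where 31.1% of all genes were higher and 31% lower. Among 28 assembly factors, 6 rose and 10 fell (21.4% and 35.7%), shares not far from that background. Surf1, an assembly factor of complex IV, rose with a log2 change of 0.85 ± 0.15, and Sco1, which delivers copper to complex IV, fell with -0.84 ± 0.11 (edgeR adjusted p = 0.00054 and 5.5e-05). Of 16 genes for proteins of the large mitochondrial ribosomal subunit, 2 rose and 12 fell (12.5% and 75%), led by Mrpl3 with -1.36 ± 0.08 and Mrpl20 with -1.25 ± 0.12 (edgeR adjusted p = 5.5e-07 and 9.1e-06). Of 13 citric acid cycle genes, 2 rose and 1 fell (15.4% and 7.69%), among them Idh3b, an isocitrate dehydrogenase subunit, with 0.98 ± 0.14 and malate dehydrogenase Mdh2 with -0.48 ± 0.15 (edgeR adjusted p = 0.00013 and 0.016). Cycs, which encodes cytochrome c, fell with a log2 change of -1.95 ± 0.32 (edgeR adjusted p = 0.00030), and of the 6 genes listed with it 1 rose, Usmg5, a small ATP synthase subunit, with 0.71 ± 0.25 (edgeR adjusted p = 0.029). Cell cycle and DNA replication genes fell in 8 of 8 cases. Of the marker lists, to be read against the same background, 3 of 16 cardiomyocyte genes rose and 0 fell, 6 of 10 smooth muscle and fibroblast genes rose and 2 fell, and 1 of 6 blood genes rose and 5 fell. Among endothelial markers 2 of 7 rose and 1 fell, among skeletal muscle markers 2 of the 5 tested (11 listed) rose and 1 fell, among neural markers 0 of the 3 tested (6 with a row in the counts) rose and 2 fell, and among endoderm markers 0 of 7 rose and 1 fell. The part of these cell types in the respiratory changes was not tested.

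Of 16 known regulators of respiratory genes, 5 rose and 3 fell from D6 to D12 in controls (31.25% and 18.75%, against 31.1% and 31% of all genes), so the share that rose was that of the background. The nuclear receptor Ppard rose with a log2 change of 1.73 ± 0.14 and the coactivator Pprc1 fell with -0.96 ± 0.11 (edgeR adjusted p = 2.5e-06 and 2.0e-05). None of the 13 mitochondrially encoded subunits has a row among the 23337 symbols, so the subunits encoded by the mitochondrial genome were not analysed here.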

How the data were processed

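Mouse polyadenylated RNA was sequenced as short single-end reads, per the labels' protocols. The authors deposited raw counts per gene symbol for 18 libraries, TPM (transcript abundance scaled to a common total) for the D5 libraries, and tables of their own tests with log2 fold changes, p-values, mean signal (normalized counts) and, at D6, a standard error and a test statistic as scores, per the file headers. For these files the sources used here name no aligner, counting tool, use of strand or genome build. Count columns carry library numbers and not replicate numbers, so libraries are named by those numbers.

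The 14 D6, D8 and D12 libraries were fitted together in edgeR 4.0.16 (R 4.3.3) with TMM scaling, a minimum count of 10 in filterByExpr, 1 coefficient for each of 6 groups and the robust quasi-likelihood F test. The fit covered 14723 genes, including all 82 respiratory genes, in 9 comparisons, with Benjamini-Hochberg adjustment over all genes and a threshold of 0.05. The script was tested on simulated counts. Alternatives were DESeq2 1.42.0, its size factors in edgeR, no filter, all 18 libraries, a block for adjacent library numbers and leaving out each library in turn. After the data were seen, no TMM scaling and a block with the D12 pairs crossed were added. Deviations from group means correlated between adjacent library numbers at 0.63, 0.46 and 0.53 at D6 and 0.50 at D8, and at -0.24 at D12.

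Named genes are Gli1, the subunits with alternative forms, the gene with the highest mean CPM of each complex, the 3 largest rises and falls that passed (or the 2 smallest p-values where none passed), and the genes at the edge of the count threshold. Others in the text (among them Ndufv3, Uqcrh, Ndufs7, Ndufa10, Ndufb7, Sdhc, Sdhd, Atp5d, Atp5h and Atp5s) were chosen after their values were seen. For 1 gene that the rule names, no value of its own is reported here. The genes and lists were chosen with earlier results of these data known.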

Additional observations from a re-analysis of the deposited data

Results flagged for a closer look

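The D5 libraries, which enter no comparison, hold signal for genes that the D6, D8 and D12 counts show at or near 0. In the authors' deposited TPM of the 4 untreated D5 libraries, Ndufs5, a complex I subunit with 0 counts in all 14 later libraries, averaged 23.1 TPM. In the D5 counts Ndufs5 was at 0 as well, so its gap between TPM and counts is present within D5. Atp5g1 averaged 203.5 TPM, Atp5g2 425.9 TPM and Atp5l 260.2 TPM, although these 3 genes had 465, 122 and 100 counts over the 14 later libraries. Cox7c, a complex IV subunit, averaged 536.2 TPM at D5 and had 144 counts over the later libraries. Atp5h averaged 499.5 TPM and Uqcrb 475.3 TPM, and their D5 counts, per library total, were 3.74 and 4.32 times those of the D6 controls. Day and counting method cannot be told apart in the values of the genes other than Ndufs5 and Ndufb4.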

How the results depend on the processing

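With 1 library left out, the median log2 fold change of the 82 genes changed sign in 4 comparisons: GLI1 OE versus control at D12 (-0.32 to 0.07), the effect at D12 minus that at D6 (-0.30 to 0.12), D12 versus D6 in GLI1 OE (-0.02 to 0.32) and D12 versus D8 in controls (-0.05 to 0.35). With edgeR, the counts of respiratory genes called between GLI1 OE and control at D6, at D8 and at D12, and in both tests of a difference between days, were 0 under every alternative run, with 1 exception: the replicate block with the D12 pairs crossed gave 1 gene at D6, Cox4nb (log2 fold change 0.32, adjusted p = 0.018), where 15.2% of all genes were called. The block on adjacent library numbers gave 0 in each of these comparisons, where 1358 of all 14723 genes were called at D6 and 0 at D8 and D12. The blocks use the same pairs at D6 and D8 and differ only at D12, where adjacent numbers correlated at -0.24. The D6 correlations therefore do not choose between them. Comparisons between days could not be fitted with the block, because each pair lies within a day. For time, DESeq2, its size factors, no filter, all 18 libraries and no TMM scaling kept the counts within 1.5 times. Leaving out 1 library gave 5 to 12 genes for D8 versus D6 in controls, 2 to 17 for D12 versus D8 in controls, 25 to 39 for D12 versus D6 in controls and 21 to 35 for D12 versus D6 in GLI1 OE. The lowest counts came without D8 control library 13, D8 control library 17, D12 control library 19 and D12 GLI1 OE library 10. D8 versus D6 gave 7 without D6 control library 3, and D12 versus D8 gave 4 without D12 control library 19 and 17 without D12 control library 9. Without TMM scaling, D12 versus D8 split into 5 higher and 3 lower in place of 10 and 1, and D12 versus D6 in GLI1 OE into 24 higher and 9 lower in place of 28 and 3. Of the tests of named genes under alternatives, 85 lost and 29 gained the threshold and 4417 kept their side. With 2 libraries a group, differences the size of the D8 median were not detectable for single genes.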
